A study of Mus musculus with 6 samples.

Results

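The regions described here are the differentially methylated regions (DMRs) at genes for Wnt ligands, Wnt receptors and core components of the pathway. They were taken from a list of 18333 DMRs between lung endothelial cells (EC) of infant and of young adult mice. A DMR was a member when its midpoint lay within 10 kb of the body of 1 of 52 autosomal genes, namely the 19 numbered Wnt genes, the 10 numbered Fzd genes, and *Lrp5*, *Lrp6*, *Ror1*, *Ror2*, *Dkk1*, *Dkk2*, *Dkk3*, *Rspo1*, *Rspo3*, *Dvl1*, *Dvl2*, *Dvl3*, *Axin1*, *Axin2*, *Apc*, *Ctnnb1*, *Lef1*, *Tcf7*, *Tcf7l1*, *Tcf7l2*, *Vangl1*, *Vangl2* and *Prickle1*. This rule found 79 DMRs, of which 39 lost and 40 gained methylation with age. No DMR was within 10 kb of more than 1 of these genes.

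EC were sorted from the lungs of C57BL/6N mice as cells carrying CD31 and CD34 and lacking the leukocyte marker PTPRC, the erythroid marker LY76 and the lymphatic markers LYVE1 and PDPN. There were 3 samples of infant mice, aged 8 to 10 days, and 3 of young adult mice, aged 8 to 12 weeks, given as biological replicates, and the methods describe the mice as female. The labels name no treatment or transgene for either group. Methylation was measured by T-WGBS, bisulfite sequencing of the whole genome with libraries made by tagmentation, in which bisulfite turns unmethylated cytosines into uracil, and methylation at a CpG is read from the cytosines left over. The list used here holds the authors' mean of the 3 samples per group for each DMR and no value per sample. Each level below is therefore the authors' group mean, the spread between samples and the depth behind a level are unknown, and no test of age was possible here. The regions had been chosen by the authors with a test on the same samples, so every size is that of a selected region.

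Wnt proteins are secreted lipid-modified ligands that bind Frizzled receptors together with co-receptors of the LRP or ROR families. In the canonical branch, Dishevelled then holds back a destruction complex built on Axin and APC, and β-catenin accumulates and activates genes with TCF/LEF factors on DNA. In the planar cell polarity branch, Frizzled signals through Dishevelled with VANGL and PRICKLE proteins to the cytoskeleton. In blood vessels, the pathway is known for its part in sprouting, vessel remodelling and barrier formation.

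The sequences of 11 DMRs that carry the results are shown first. Each is the DMR of largest difference at its gene. The genes are those with the most DMRs in their role, ties included, and *Lrp5*, which had the largest loss outside *Prickle1*. The sequences show how few CpGs a DMR level rests on. Each is printed 5′ to 3′ on the plus strand of mm10, with every CpG in capitals. For *Prickle1* the central 300 bases of the region are printed, chr15:93508637-93508936, which hold 7 of its 11 CpGs. The others are whole, from the first to the last CpG: *Lrp5*, chr19:3639909-3640001; *Dvl3*, chr16:20540704-20540799; *Tcf7l2*, chr19:55744749-55744777; *Ror1*, chr4:100097710-100097760; *Fzd4*, chr7:89418210-89418327; *Fzd5*, chr1:64734973-64735007; *Axin2*, chr11:108923437-108923483; *Wnt5b*, chr6:119492880-119492923; *Wnt2b*, chr3:104968691-104968825; and *Dkk3*, chr7:112138935-112139101. *Prickle1*, *Lrp5*, *Dvl3* and *Wnt2b* regions lost methylation, and the regions of the 7 other genes gained it.
Prickle1: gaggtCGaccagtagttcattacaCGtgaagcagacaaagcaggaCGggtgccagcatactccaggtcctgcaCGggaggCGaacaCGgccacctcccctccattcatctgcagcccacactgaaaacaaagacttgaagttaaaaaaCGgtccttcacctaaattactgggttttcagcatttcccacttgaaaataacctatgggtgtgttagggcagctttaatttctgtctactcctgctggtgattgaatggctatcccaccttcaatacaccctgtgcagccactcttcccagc
Lrp5: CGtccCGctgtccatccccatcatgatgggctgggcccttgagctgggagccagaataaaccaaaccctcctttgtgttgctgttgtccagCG
Dvl3: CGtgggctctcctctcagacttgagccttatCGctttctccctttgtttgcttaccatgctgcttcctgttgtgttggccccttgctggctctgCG
Tcf7l2: CGctttcCGgaggctgctagcagcctcCG
Ror1: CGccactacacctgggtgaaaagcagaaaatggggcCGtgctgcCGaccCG
Fzd4: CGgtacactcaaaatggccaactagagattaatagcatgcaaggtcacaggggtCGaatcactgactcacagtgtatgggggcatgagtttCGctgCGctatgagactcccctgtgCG
Fzd5: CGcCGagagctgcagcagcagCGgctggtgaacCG
Axin2: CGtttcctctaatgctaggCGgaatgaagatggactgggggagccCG
Wnt5b: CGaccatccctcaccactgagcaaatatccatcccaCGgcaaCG
Wnt2b: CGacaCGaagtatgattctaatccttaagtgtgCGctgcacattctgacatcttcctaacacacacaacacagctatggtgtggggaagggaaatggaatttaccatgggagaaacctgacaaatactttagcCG
Dkk3: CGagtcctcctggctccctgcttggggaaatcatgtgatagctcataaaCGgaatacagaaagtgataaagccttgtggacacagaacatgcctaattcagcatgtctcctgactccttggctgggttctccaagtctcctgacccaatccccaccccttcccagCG

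At least 1 DMR was present at 24 of the 52 genes (46.2%). Counting gene bodies only left 15 genes, and counting DMRs of at least 5 CpGs left 4. Across 24963 autosomal RefSeq genes the share with a DMR within 10 kb was 27.3%. The Wnt genes also offered more sequence, with a median window (gene body plus 10 kb on either side) of 46.5 kb against 33.7 kb. Per 100 kb of window they held 2.17 DMRs against 1.14 over all genes, and 1.54 without *Prickle1*. Of the CpGs in the windows, 0.612% lay in a DMR against 0.413% over all genes, but 0.372% without *Prickle1*. At least 1 gain of methylation DMR was present at 19 of the Wnt genes (36.5%), against 18.7% of all autosomal genes. Loss of methylation DMRs were present at 10 of them (19.2%), against 12.5%. Only gains were found at 14 genes, only losses at 5, and DMRs of both directions at *Wnt2b*, *Tcf7*, *Tcf7l2*, *Vangl2* and *Prickle1*. Gains also reached more genes than losses over all autosomal genes. There, 4677 genes had a gain and 3118 a loss, of 6817 with any DMR.

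Counted by DMR, losses made up 49.4% of the 79 (95% Wilson interval 38.6 to 60.2, which covers the number of regions only). Of the 13925 autosomal DMRs within 10 kb of any gene, 54.3% lost methylation. The near balance at the Wnt genes rested on *Prickle1*, which held 24 of the 39 losses. Among the 54 DMRs of the other genes 15 were losses, a share of 27.8% (17.6 to 40.9). Leaving out *Prickle1* was chosen after the data were seen, and the 54.3% near all genes keeps every cluster of losses. An excess of gains was not particular to the Wnt genes. The 3794 autosomal genes with exactly 1 DMR held 0.909 gains and 0.407 losses per 100 kb of window. The 51 Wnt genes without *Prickle1* held 1.11 and 0.427. Among the 16 DMRs with at least 5 CpGs, 11 of them at *Prickle1*, the share of losses was 87.5%, against 79.1% of the 2508 such DMRs near all genes. Both intervals treat each DMR as independent. DMRs in 1 gene share their surroundings, so the intervals may be too narrow. The count of DMRs per gene shows *Prickle1* as a tall column of losses beside genes with at most 8 DMRs.

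**Figure D1:**
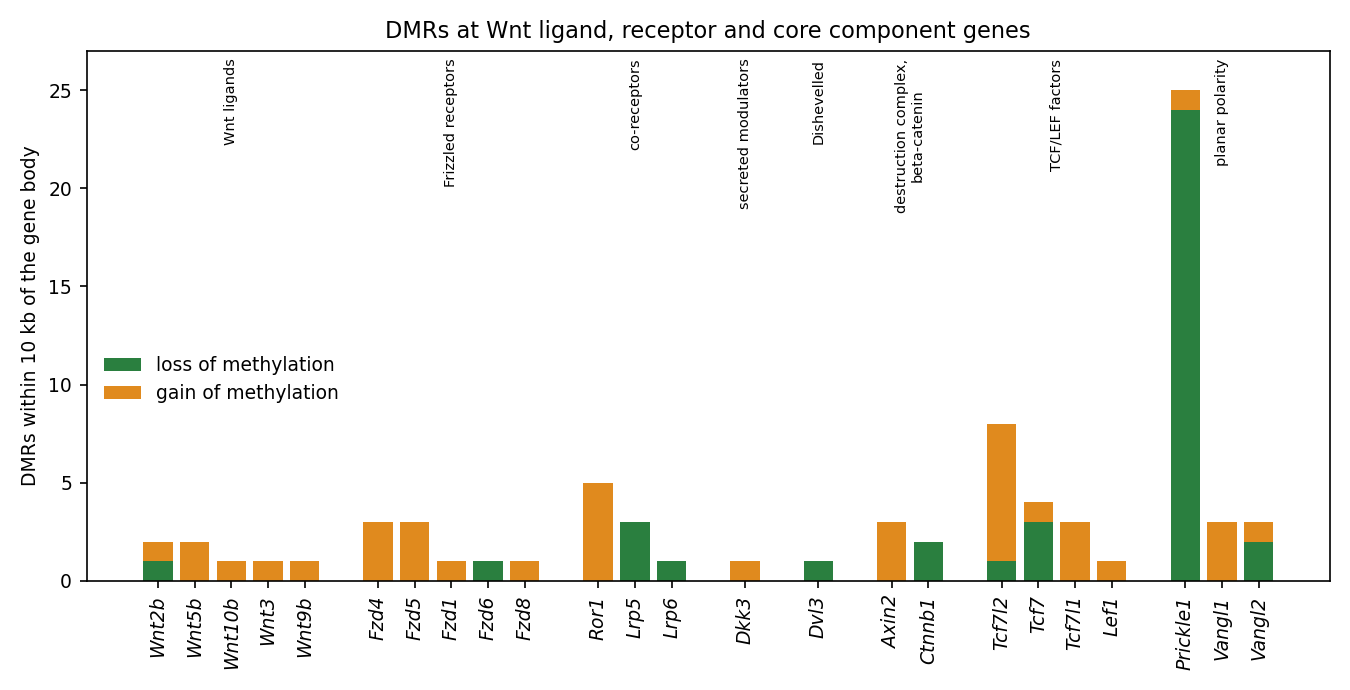
Number of DMRs within 10 kb of the body of each of the 24 Wnt pathway genes that had any, grouped by role, with loss of methylation in green and gain in orange (stacked bars). *Prickle1* has 24 losses and 1 gain, *Tcf7l2* 7 gains and 1 loss, *Ror1* 5 gains, and the other genes 1 to 4 DMRs.

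The losses and the gains at Wnt genes were of ordinary size for the list. The differences of the 39 losses ranged from −52.4 to −10.7 percentage points, with a median of −32.7, the same value as the median over the 7564 losses near all autosomal genes. The 40 gains ranged from 11.4 to 35.0 percentage points with a median of 23.4, beside a median of 20.9 over 6361 gains near all genes. The losses had a median level of 60.8% at the younger and 28.6% at the older age, and 14 of the 39 (35.9%) ended below 20%, against 38.1% near all genes. For the gains the medians were 62% and 83.2%, and 22 of the 40 (55.0%) exceeded 80% methylation in young adult EC, against 43.7% of gains near all genes. In the plot of group means the members lie within the range that the other DMRs fill.

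**Figure D2:**
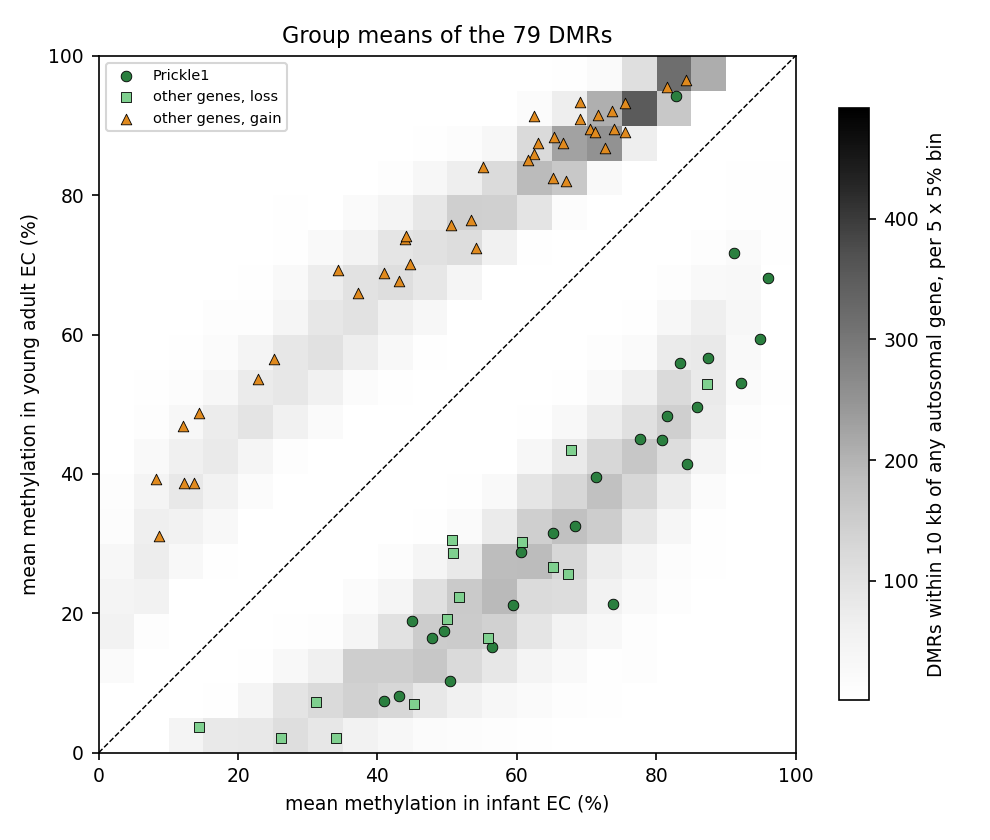
Mean methylation of each of the 79 DMRs in infant EC (x axis, %) and young adult EC (y axis, %), as the authors' means of 3 samples a group, over a grey map of the number of DMRs near all autosomal genes per bin of 5 by 5%. Green circles are *Prickle1* DMRs, pale green squares other losses and orange triangles other gains, and points below the dashed line lost methylation.

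A group of 6 gains started from below 20% in infant EC, so that sparsely methylated sequence became partly methylated. They were 2 DMRs at *Fzd4*, 2 at *Fzd5*, and 1 each at *Tcf7l1* and *Tcf7l2*, and their share of all gains (15%) was close to that near all genes (16.0%). At the other end, 11 of the 39 losses (28.2%) began above 80%, against 15.8% of losses near all genes. Of these 11, 10 were in *Prickle1*, and the other was in *Lrp5*.

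The Wnt ligands, the secreted signals of the pathway, had DMRs at 5 of their 19 genes (26.3%, near the 27.3% of all genes), with 6 gains and 1 loss. Per 100 kb of window the ligand genes held 0.764 DMRs, against 1.14 over all autosomal genes. Of the CpGs in their windows 0.157% lay in a DMR, against 0.413% over all genes. *Wnt2b* and *Wnt5b* had the most, with 2 DMRs each.

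At *Wnt5b*, a ligand best known in non-canonical signalling, both DMRs gained methylation. The DMR shown above lay in intron 1, 51.4 kb after the most upstream TSS, and it rose from 44.1% to 74.1%. The second, chr6:119431763-119431855, lay 0.724 kb beyond the gene's end and rose from 73.6% to 92.1%. Each holds 3 CpGs, and neither had a *Wnt5b* TSS as the nearest, which was that of *Fbxl14* for the first and of *Adipor2* for the second.

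*Wnt2b*, a canonical ligand, had 1 DMR of either direction, both upstream of the gene. The gain at chr3:104965967-104966148 lay 4.35 kb upstream and led from 71.6% to 91.5%. The loss at chr3:104968691-104968825, 7.05 kb upstream, led from 50.8% to 28.6%. These neighbouring intergenic regions, 2.54 kb apart, thus moved in opposite directions.

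The 3 other ligand genes had a single gain each. The *Wnt9b* region, chr11:103751027-103751048, lay 1.22 kb upstream of the gene and led from 44.7% to 70.2%. The *Wnt10b* region, chr15:98768590-98768856, lay 3.03 kb downstream, with the TSS of *Arf3* as the nearest, and led from 53.5% to 76.4%. The *Wnt3* region, chr11:103827597-103827647, was already at 81.5% in infant EC and reached 95.5%. The last lay 9.6 kb outside *Wnt3*, in intron 18 of *Nsf*, and was the member nearest the limit of 10 kb. Just outside that limit, a region 10.8 kb from *Axin2* led from 24.4% to 54.1%, and another 11.7 kb from *Wnt2b* led from 78.4% to 46.7%.

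The remaining 14 ligand genes had none within 10 kb. *Wnt5a* and *Wnt11*, both ligands with non-canonical functions, had their nearest DMR at 53.1 and 56.2 kb. For *Wnt2*, a ligand with a known part in early lung formation, it was 359.0 kb away. *Wnt3a*, a canonical ligand, had its nearest at 229.0 kb.

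The Frizzled genes encode the seven-pass membrane receptors. DMRs were present at 5 of the 10 (50%, against 27.3% of all autosomal genes), with 8 gains and 1 loss. The density at the Frizzled genes was 2.68 DMRs per 100 kb of window, of which 2.38 were gains, against 0.537 gains per 100 kb over all genes. Counted by CpG the contrast was smaller. Of the CpGs in the Frizzled windows 0.602% lay in a DMR, against 0.413% over all genes. *Fzd4* and *Fzd5* had 3 gains each.

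*Fzd4* encodes the receptor that, with LRP5 and the ligand norrin, is required for retinal vessels. Its largest gain, shown above, lay 8.16 kb downstream of the gene and led from 12.1% to 46.9% over 5 CpGs. A neighbour 0.44 kb away, chr7:89417570-89417770, led from 50.6% to 75.7%. Both had the TSS of *AI314278* as the nearest. The region inside the gene, chr7:89408456-89408623, lay in exon 2, partly or wholly in untranslated sequence, and led from 8.66% to 31.1%. *Fzd4* thus had regions of low and of intermediate methylation in infant EC, and all 3 were higher in young adult EC.

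*Fzd5*, a receptor needed for vessel formation in the yolk sac and placenta, carried its 3 gains within 0.592 kb of exon 2. They became 1 region when DMRs at most 500 bp apart were joined. A pair of adjoining regions lay in coding sequence and overlapped a CpG island, a stretch rich in CpGs. The 1 shown above led from 14.4% to 48.8%, and its neighbour, chr1:64734930-64734954, led from 13.7% to 38.7%. They were separated by 0.019 kb. The region on the other side, chr1:64734416-64734698, was already at 70.5% in infant EC and reached 89.5%. A step from sparse to dense methylation therefore lay within this exon in infant EC, and every region on either side of it rose.

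The other Frizzled genes had single DMRs. *Fzd6*, whose product acts in planar cell polarity, was the receptor gene with a loss, in intron 2 (chr15:39018584-39018643), where methylation fell from 45.2% to 6.93%. *Fzd1* had a gain 1.27 kb upstream of its body, from 62.5% to 85.9%. *Fzd8* had a gain 0.507 kb beyond the gene's end, from 75.6% to 93.2%. *Fzd2*, *Fzd3*, *Fzd7*, *Fzd9* and *Fzd10* had none.

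Of the co-receptor genes, *Lrp5*, *Lrp6* and *Ror1* had DMRs and *Ror2* had none. The 4 DMRs at *Lrp5* (3) and *Lrp6* (1) were losses and the 5 at *Ror1* were gains, a difference between single genes that was not tested. *Lrp5* and *Lrp6* encode the canonical co-receptors, and *Ror1* a receptor tyrosine kinase-like protein that binds Wnt5a.

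The 3 *Lrp5* losses lay in introns 5 and 7, from 46.6 to 63.4 kb after the TSS. The region shown above, in intron 5, fell from 67.3% to 25.7%, a difference of −41.5 percentage points and the largest loss outside *Prickle1*. In intron 7, chr19:3623150-3623220 fell from 87.3% to 52.9%. The neighbouring chr19:3626822-3626934 fell from 34.0% to 2.16%. Both regions of intron 7 had the TSS of *Ppp6r3* as the nearest. The 3 *Lrp5* regions differed widely in their starting level but not in their direction. The *Lrp6* region, chr6:134575181-134575186, is 6 bases long with 3 CpGs, lay 8.27 kb upstream and fell by 10.7 percentage points from 14.4% to 3.64%.

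The 5 *Ror1* gains were spread over 266.0 kb of a gene of 349.0 kb, 4 of them in intron 1 and 1 in intron 4. The region nearest the start, shown above, lay 1.94 kb after the TSS and led from 40.9% to 68.8%. The next, chr4:100098956-100099219 at 3.29 kb, led from 71.2% to 89.1%. The 3 regions deeper in the gene, at 76.7, 138.0 and 268.0 kb, led from 73.9% to 89.5%, from 65.4% to 88.4% and from 84.3% to 96.6%. The region closest to the TSS was the least methylated of the 5 in both groups. Because *Ror1* is long, its density of 1.35 DMRs per 100 kb was near the 1.14 of all genes, although only 3.36% of autosomal genes had 5 or more DMRs, a number that *Prickle1*, *Tcf7l2* and *Ror1* reached. With a minimum difference of 20 percentage points *Ror1* had 2 DMRs, and with at least 5 CpGs *Ror1* and *Tcf7l2* had 0.

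Among the secreted modulators, *Dkk3* had 1 DMR and *Dkk1*, *Dkk2*, *Rspo1* and *Rspo3* had none. *Dkk1* and *Dkk2* bind LRP5 and LRP6, the R-spondins raise receptor levels, and *Dkk3* is a more distant family member. The *Dkk3* region shown above lay in intron 4 and gained methylation from 63.1% to 87.5%. For *Rspo3*, an angiogenic modulator that EC can secrete, the nearest DMR was 652.0 kb away.

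The Dishevelled genes encode the cytoplasmic relay between receptor and both branches of the pathway. A single loss lay 6.74 kb beyond *Dvl3*, from 60.8% to 30.2%, within intron 4 of the neighbouring *Ap2m1*, whose TSS was also the nearest. *Dvl1* and *Dvl2* had no DMR within 10 kb. The nearest to them lay at 31.6 and 43.3 kb.

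At the destruction complex, *Axin2* and *Ctnnb1* moved in opposite directions and *Axin1* and *Apc* had no DMR. *Axin2*, a scaffold of the complex and a well-known target gene of β-catenin signalling, had 3 gains within 0.643 kb of coding exon 2. Joining DMRs at most 500 bp apart made them 1 region. From the 5′ end, the region shown above led from 25.2% to 56.5%, chr11:108923607-108923717 led from 55.2% to 84.0%, and chr11:108923991-108924079 led from 62.4% to 91.3% over 7 CpGs. Methylation rose along the exon with distance from the TSS in both groups, and the 3 differences lay between 28.8 and 31.3 percentage points. The first and the last of the 3 overlapped CpG islands computed from the sequence.

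*Ctnnb1*, which encodes β-catenin, had 2 intronic losses. In intron 1, chr9:120946350-120946430 fell from 50% to 19.2%. In intron 14, chr9:120958676-120958820 fell from 67.8% to 43.5%. These lay 13.0 and 25.3 kb after the TSS of a gene of 27.1 kb, and both had the TSS of *Mir7090* as the nearest.

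All 4 TCF/LEF genes, which encode the DNA-binding partners of β-catenin, had DMRs, with 12 gains and 4 losses. Of all autosomal genes 27.3% had a DMR. The windows of these 4 genes were long, with a median of 158 kb against 33.7 kb over all genes. The density at the TCF/LEF genes was 2.07 gains and 0.69 losses per 100 kb, beside 0.537 and 0.607 over all autosomal genes. Of the CpGs in their windows 0.595% lay in a DMR, against 0.413% over all genes. The 4 genes differed in their balance. *Tcf7l2* had 7 gains and 1 loss, *Tcf7l1* 3 gains, *Lef1* 1 gain, and *Tcf7* 3 losses and 1 gain.

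*Tcf7l2* (chr19, 192.0 kb) had the most DMRs after *Prickle1*, all of 3 CpGs and all intronic. A pair of gains 0.048 kb apart, both overlapping a CpG island, lay in intron 3, 2.88 and 2.95 kb after the most upstream TSS. The region shown above led from 34.3% to 69.3%, with a difference of 35.0 the largest gain at any of the 52 genes, and chr19:55744682-55744701 led from 8.25% to 39.3%. Their nearest TSS was that of the noncoding gene *Gm31734*, as it was for the gain at 30.2 kb and for the loss. Assignment by nearest TSS left *Tcf7l2* 4 DMRs. The 5 other gains, at 30.2, 79.5, 126.0, 155.0 and 173.0 kb, started between 54.1% and 75.6% and ended between 72.4% and 93.4%. The loss between them, chr19:55792836-55792855 in intron 3, started at 26.1% and ended at 2.12%. The map of this gene shows low infant methylation at the start of the gene and at the loss, and intermediate to high infant methylation at the other regions.

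In *Tcf7l1*, a factor known mainly as a repressor, the 3 gains lay in intron 3. At 1.11 kb after the TSS, chr6:72787874-72788002 led from 12.2% to 38.7%. At 44.7 kb methylation rose from 66.7% to 87.5%, and at 112.0 kb from 67% to 82.1%. As in *Ror1*, the gain nearest the TSS began at the lowest level of the gene's gains. In *Tcf7l2* this held for the most upstream TSS only, since the gain 1.44 kb after the second TSS began at 69.1%. *Lef1* had its gain in intron 3, chr3:131171147-131171224, from 22.9% to 53.6%.

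*Tcf7*, which encodes TCF1, was the TCF/LEF gene with mainly losses. In intron 3, chr11:52264974-52265105 fell from 55.9% to 16.4%. At 8.4 and 8.15 kb after the most upstream TSS, 2 regions 0.158 kb apart fell from 65.2% to 26.7% and from 51.7% to 22.4%. Each of the 3 holds 5 CpGs. The gain, chr11:52286872-52286927, lay 3.88 kb upstream of the gene and led from 44.0% to 73.7%.

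**Figure D3:**
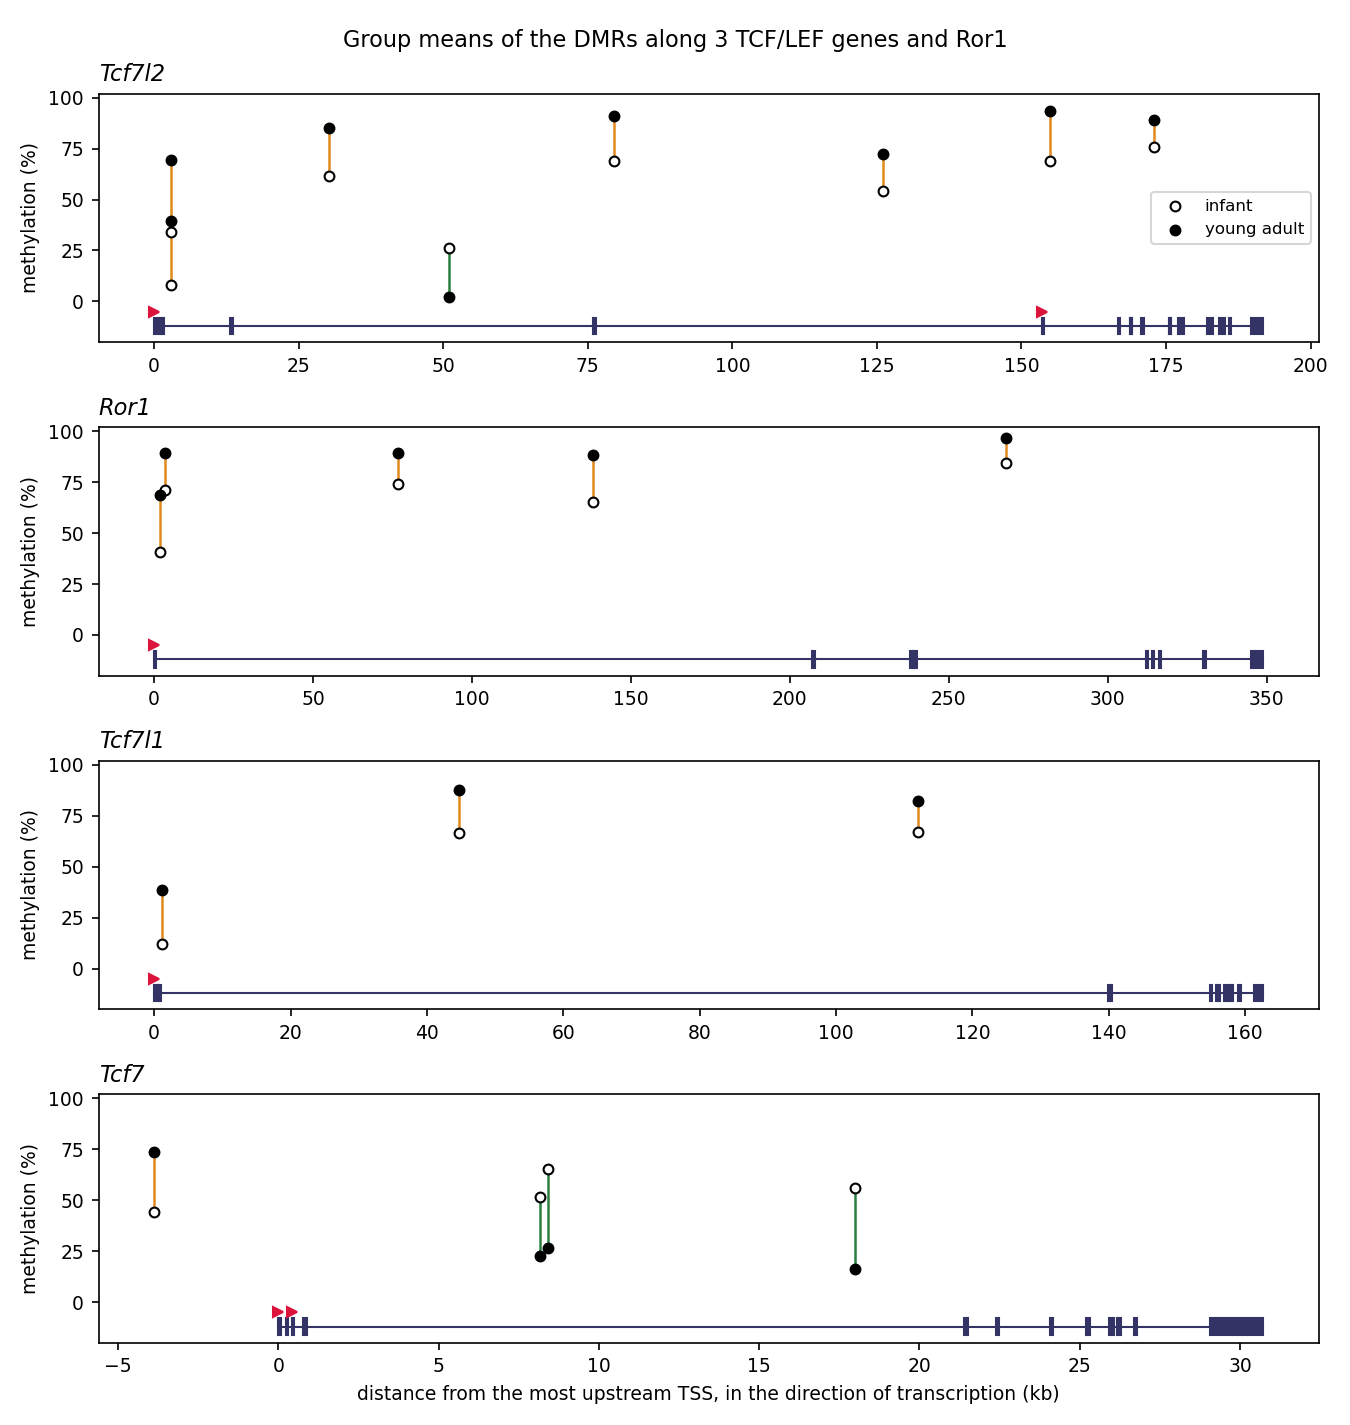
Mean methylation (%, y axis) in infant EC (open circles) and young adult EC (filled circles) for each DMR of *Tcf7l2*, *Ror1*, *Tcf7l1* and *Tcf7*, against the distance from the most upstream TSS (kb). Orange lines join the means of gains and green lines those of losses, blue boxes are exons, red arrowheads are TSS. In *Ror1* and *Tcf7l1* the gain closest to the TSS, and in *Tcf7l2* the pair closest to the most upstream TSS, start from lower levels than the gene's other gains, and in *Tcf7* the losses lie in intron 3 and the gain upstream.

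The planar polarity genes *Vangl1*, *Vangl2* and *Prickle1* held 31 of the 79 DMRs, 26 losses and 5 gains. *Vangl1* and *Vangl2* encode the paired membrane proteins of the polarity complex and *Prickle1* a cytoplasmic partner of theirs. The density at these 3 genes was 13.4 DMRs per 100 kb, and 25 of the 31 DMRs were at *Prickle1*.

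*Prickle1* (chr15:93499111-93595902, minus strand) had 24 losses and 1 gain, a density of 21.4 DMRs per 100 kb against 1.14 over all autosomal genes. Of all autosomal genes, 28 had more DMRs. The losses spanned 71.2 kb, from 28.4 to 99.5 kb after the most upstream TSS, and held 126 CpGs. Of the 1952 CpGs in the window of the gene, 129 (6.61%) lay in a DMR, beside 0.413% over all genes. The differences of the losses lay between −52.4 and −19.4 percentage points. Neighbouring losses were a median of 1.05 kb apart, and 10 of the gaps were at most 500 bp.

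The gene has 2 annotated TSS, 76.4 kb apart, and most losses lay around and beyond the second. There were 9 losses in intron 1, 6 in the other introns, 6 in exons, 1 at the transcript end and 2 in intergenic sequence beyond it. The largest loss at any of the 52 genes was chr15:93508572-93509002, which fell from 73.8% to 21.3% over 11 CpGs. Its midpoint lay in intron 4 and 185 of its 431 bases in the adjoining coding exon 5. The next at *Prickle1*, chr15:93550452-93550534 in intron 1, fell from 84.4% to 41.5%, and chr15:93561439-93561597, also in intron 1, fell from 56.5% to 15.1%.

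Levels along *Prickle1* varied with the position in the gene. The 5 regions with midpoints in exons 7 and 8 started between 85.9% and 96.0% and ended between 49.6% and 71.7%, and these coding exons were the most methylated stretch of the gene's DMRs at the younger age, together with a region of intron 7 at 94.9%. In intron 1, chr15:93512979-93513454 fell from 50.4% to 10.3% over 11 CpGs and chr15:93515534-93515676 from 40.9% to 7.44%. The region in exon 2, chr15:93512503-93512657, partly or wholly in untranslated sequence, fell from 49.6% to 17.5%. The lowest final levels were thus in intron 1, in exon 2 and beyond the gene's end, where chr15:93496362-93496456 reached 8.2% from 43.1%. The gain lay 1.97 kb upstream of the first TSS, chr15:93597750-93598005, and led from 82.9% to 94.3%. It was the smallest gain of the 40.

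**Figure D4:**
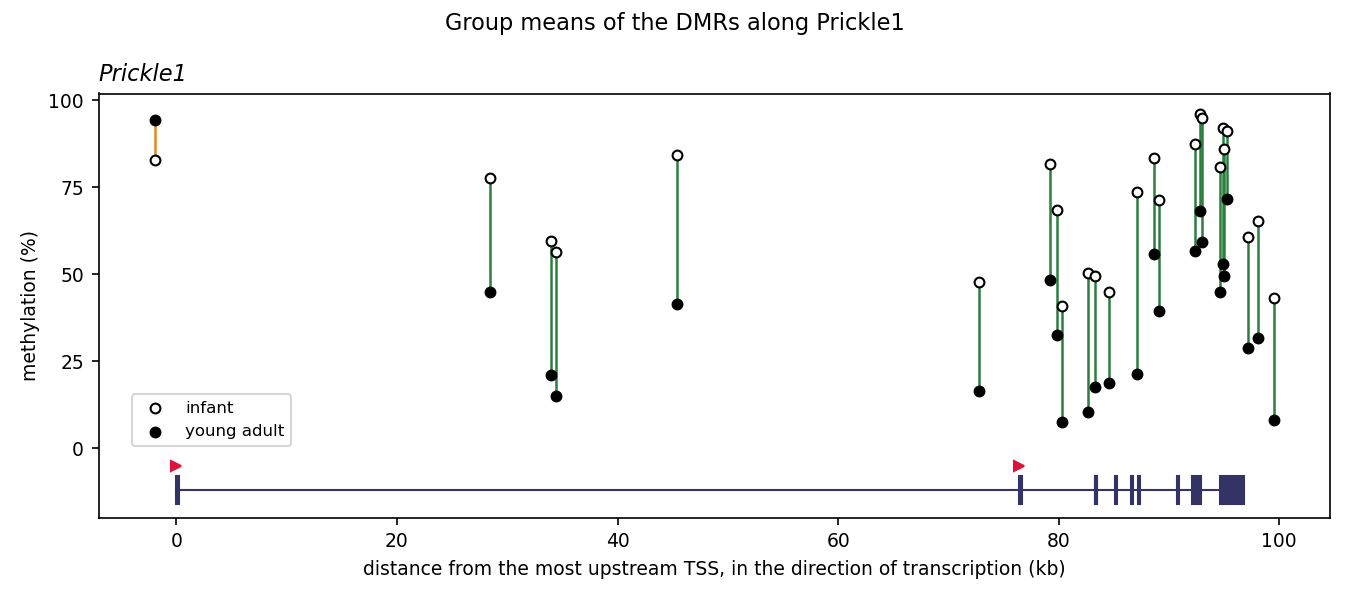
Mean methylation (%, y axis) in infant EC (open circles) and young adult EC (filled circles) for the 25 DMRs of *Prickle1*, against the distance from the most upstream TSS (kb), with green lines for losses, an orange line for the gain, blue boxes for exons and red arrowheads for the 2 TSS. The 24 losses lie between 28.4 and 99.5 kb and crowd towards the end of the gene, and the gain lies 1.97 kb upstream.

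*Vangl1* had 3 gains and *Vangl2* 2 losses and 1 gain. The *Vangl1* gains 1.02 and 1.27 kb upstream led from 37.2% to 65.9% and from 43.1% to 67.7%, and that 6.45 kb downstream led from 72.6% to 86.8%. At *Vangl2*, a gain 1.34 kb upstream led from 65.2% to 82.5%. Its losses, in intron 6 and 7.56 kb downstream, led from 50.7% to 30.5% and from 31.2% to 7.26%. All 4 DMRs upstream of the 3 polarity genes were thus gains.

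**Figure D5:**
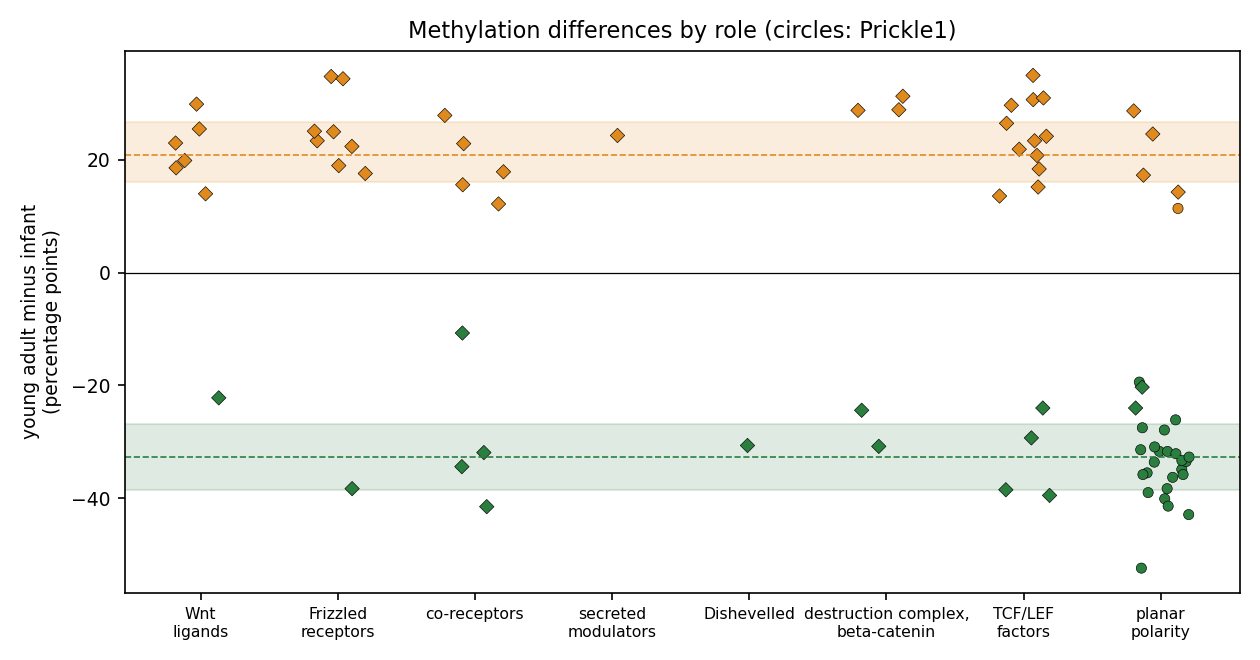
Young adult minus infant mean methylation (percentage points, y axis) of the 79 DMRs by role of the gene, with circles for *Prickle1*, diamonds for other genes, green for losses and orange for gains; points are spread sideways only for legibility. Dashed lines and bands are the median and quartiles of losses and gains near all autosomal genes. Gains outnumber losses among ligands, Frizzled receptors and TCF/LEF factors, and losses do so in the planar polarity group, where 24 of 26 are in *Prickle1*.

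The nearest TSS was that of 1 of the 52 genes for 63 of the 79 DMRs. Besides the regions named above, it was another gene's for the deepest gains of *Ror1* and *Tcf7l1*. The position of the 79 DMRs relative to genes was compared with that of all autosomal DMRs near genes. None lay in a promoter, defined as 1 kb upstream to 100 bp downstream of a TSS (0 of 79, upper Wilson bound 4.64%), beside 2.51% near all genes. With promoters of 2 kb to either side of a TSS the shares were 13.9% and 11.8%. Introns held 58.2% of them against 76.1%, exons 16.5% against 8.7%, and intergenic sequence 21.5% against 10.9%. The 13 exonic DMRs belonged to *Prickle1* (6), *Fzd5* (3), *Axin2* (3) and *Fzd4* (1). Of the 79 DMRs, 25.3% overlapped a CpG island at any base, against 14.3% near all genes.

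Although no promoter as defined held a DMR, many gains lay close to a TSS. Within 5 kb of the nearest TSS of any gene there were 22 of the 40 gains (55.0%) and 5 of the 39 losses (12.8%), against 27.8% and 24.3% of those near all genes. The limit of 5 kb was chosen after the positions were seen, and several of these gains share a gene. They were 3 at each of *Fzd5*, *Axin2* and *Tcf7l2*, 2 at each of *Ror1* and *Vangl1*, and 1 at each of *Fzd1*, *Fzd4*, *Fzd8*, *Tcf7*, *Tcf7l1*, *Wnt2b*, *Wnt9b*, *Vangl2* and *Prickle1*. Of the 5 losses within this distance, 4 lay around the second TSS of *Prickle1*.

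Windows of 200 bp centred on the DMRs were searched on both strands for short motifs. CTTTGAT, the core that TCF/LEF factors bind, was found in 2 of 79 (2.53%), at *Ror1* and *Vangl1* gains, against 3.07% near all genes. The SOX core ATTGTT was found in 8.86% against 9.62%, the ETS motif CAGGAAG in 7.59% against 11.0%, and the AP-1 motif TGANTCA in 5.06% against 6.46%. Each share of the Wnt regions had a Wilson interval that included the share near all genes. A match describes letters in a window and not a bound site.

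Further genes of the pathway were counted in the same way. Of 69 listed, 65 were autosomal, and 33 of those (50.8%, against 27.3% of all autosomal genes) had DMRs, with 113 losses and 34 gains. These shares take no account of the length of the windows. Losses made up 76.9% of these DMRs, against 54.3% near all genes, and 54 of the 113 were at 1 gene. They included 4 genes with 5 or more DMRs. *Prickle2*, the paralog of *Prickle1*, had 54 losses and no gain. *Nkd1*, a Dishevelled-binding feedback inhibitor, had 15 losses and 1 gain, *Daam1*, a formin of the polarity branch, had 10 losses, and *Ctbp2*, a transcriptional corepressor, had 5 losses and 2 gains. Losses thus predominated among them as in *Prickle1*, whereas the R-spondin axis, with its LGR receptors and the ligase gene *Znrf3*, had 5 gains and no loss. The secreted antagonists had 5 of each direction, the vascular co-receptor genes *Adgra2*, *Reck* and *Tspan12* 3 losses and 5 gains, the destruction complex and kinases 4 losses and 2 gains, the nuclear cofactors 15 and 5, the planar polarity genes and alternative receptors 69 and 5, the feedback and target genes 17 and 7, and *Wls* and *Notum*, which act in Wnt release and inactivation, none.

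The list holds no expression, so the cell type itself could not be checked, and the DMRs at marker genes are given as counts beside the 27.3% of all autosomal genes with a DMR and the 54.3% of losses near all genes. Endothelial marker genes had 53 losses and 1 gain at 6 of 8 genes (75%), with 17 losses at *Pecam1*, which encodes the sorted antigen CD31, and 15 each at *Cdh5* and *Erg*. *Tie1* and *Cldn5* had no DMR. Lymphatic markers had 2 losses at 2 of 4 genes (50%), *Flt4* and *Lyve1*, and *Prox1* and *Pdpn* had none. Of 6 haematopoietic markers only *Spi1* had a DMR (16.7%), a gain, and of 5 mesenchymal markers *Acta2* and *Cspg4* had 1 gain each (40%). Of 5 epithelial markers *Cdh1* had 1 loss (20%). A shift in the mix of sorted cells between the ages would also change a group mean, and its part in the results at the Wnt genes was not tested.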

How the data were processed

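T-WGBS data of EC from 3 infant and 3 young adult samples were analysed from the list of DMRs. The authors trimmed reads with SeqPrep, aligned them with BWA (0.6.1, per the submitters' processing notes, which also name R 3.2.2 and bcl2fastq 1.8.4) to bisulfite-converted mm10, removed duplicates with Picard and called DMRs with bsseq from at least 3 consecutive CpGs with a coverage of at least 8 in at least 2 samples per group, each passing 0.05, with group means at least 10% apart. The deposited values are fractions that the authors averaged over the samples of a group, here expressed as percent. The depth behind a DMR is unknown.

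Python 3.11.15, pandas 2.3.3 and pysam 0.24.0 were used. Of 18333 DMRs, 18333 began and 18333 ended at a CpG of GRCm38, and the stated direction matched the sign in 18333. A gene body ran from the first to the last base of its curated RefSeq transcripts (GRCm38.p6). Midpoints were placed in the order promoter, transcript end (100 bp before to 1 kb after), exon, intron and intergenic. CpG islands had at least 200 bp, 50% GC and an observed to expected ratio of 0.6. A DMR was assigned to an island when any of its bases overlapped such a stretch. Window counting was tested on simulated regions. Members and lists were chosen with earlier results of these data known. Genes with at least 5 DMRs and the gene with most DMRs of each role were described in full, as were the 5 largest losses and gains. The alternatives changed the window, the minimum difference, the minimum number of CpGs, joining, overlap, transcripts, nearest TSS and promoter width.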

Additional observations from a re-analysis of the deposited data

How the results depend on the processing

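The values were recomputed with other windows, minimum sizes, joining of neighbours, transcripts and promoters, and, chosen after seeing the data, without *Prickle1*. Of the recomputed summary values, 52 stayed within their interval or within 1.5 times the count and 12 did not. With DMRs of at least 5 CpGs, 16 DMRs at 4 genes remained, 11 of them at *Prickle1* and 87.5% losses (79.1% near all genes), with a median loss of −36.1 and a median gain of 31.8 percentage points. Without *Prickle1* losses made up 27.8% and their median was −30.6. Counting gene bodies only left 15 genes with a DMR and placed 77.2% of the DMRs in introns, and assignment by nearest TSS placed 46.0% there. With a minimum difference of 20 percentage points the median gain was 26. With promoters of 2 kb to either side of the TSS, 13.9% of the DMRs lay in a promoter, against 11.8% near all genes. Joining neighbours within 500 bp left 15 DMRs at *Prickle1*, 1 at *Axin2* and 1 at *Fzd5*; of the values for single genes 54 stayed and 26 moved. By nearest TSS, *Tcf7l2* had 4 DMRs and *Fzd4* 1, *Dvl3* and *Wnt5b* had none, and *Fzd5* had 6. No paired analysis was possible because the list holds only a mean per group, and leaving out each replicate was not run for the same reason.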

Other observations

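Of the 28 genes without a DMR within 10 kb, 11 had one within 50 kb, but these were not all separate regions. The *Wnt1* region, at 21.1 kb, was the *Wnt10b* gain described above. *Wnt6* and *Wnt10a* shared 1 region, at 24.7 and 44.8 kb from their bodies. *Wnt7b*, a ligand, had 6 DMRs within 50 kb. At 25 kb outside the gene body, methylation led from 69.6% to 90.5%, and at 30.3 and 31.8 kb it fell from 55.1% to 19.6% and from 54.8% to 26.9%. The next, at 33.5, 33.6 and 44.7 kb, were gains. Of genes that also had nearer DMRs, *Wnt10b* had 3 losses between 34.7 and 35.4 kb from its body, which fell by 32.4, 22 and 32.6 percentage points. *Lrp6* had 2 gains at 27.2 kb, from 48.7% to 79.1% and from 16.7% to 36.3%. *Axin1* had a gain at 21.4 kb, from 50.9% to 76.6%. Further losses lay beyond *Prickle1*, at 16.6, 34.9 and 46.4 kb from its body, from 67.4% to 31.0%, from 74.4% to 50.8% and from 86.9% to 51.5%, and a gain lay at 40.0 kb, from 22.6% to 41.2%. Distances of this size pass other genes, so the regions are given by position only.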
